A study of Mus musculus with 4 samples.

Results

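The genes described here encode the matrix metalloproteinases (Mmp), the Adamts metalloproteinases and the tissue inhibitors of metalloproteinases (Timp). They were taken as all probe sets whose single gene symbol in the array's annotation was Mmp followed by a number, Adamts followed by a number alone, or Timp followed by 1 digit. This gave 70 of 45101 probe sets, for 37 of 18193 genes: 18 Mmp, 15 Adamts and 4 Timp genes. RNA was profiled on Affymetrix expression arrays, which read each transcript with 1 or more probe sets, in primary cultures of palatal mesenchymal cells. The embryos were outbred, wild-type and at embryonic day 14. There were 4 cultures with 1 array each, all of the same genotype and age. The first was untreated, the second received TGF-beta2 for 120 minutes, the third received SB431542 for 60 minutes before the same stimulation, and the fourth received 5Z-7-Oxozeaenol (oxozeaenol below) in the same way. SB431542 inhibits the type I TGF-beta receptor kinase and oxozeaenol inhibits the kinase Tak1. Neither inhibitor was given without TGF-beta2, and the dose of each agent is not given here. Adamts2, Adamts14, Mmp15 and other family genes that the annotation did not list were not analysed here.

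Mmp enzymes are zinc proteases that are made as inactive precursors and cleave collagens and other matrix proteins outside the cell or at its surface. Adamts enzymes are secreted relatives, several of which cleave the large proteoglycans versican and aggrecan, and Timp proteins bind the active site of these proteases and block them. In the developing palate, the shelves grow, lift and fuse within a matrix rich in hyaluronan, proteoglycan and collagen, and these proteases and inhibitors are known to take part in its remodelling. In several cell types, transcription of secreted Mmp genes is known to respond to AP-1, the dimer of Fos and Jun proteins, and to TGF-beta.

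With 1 array per condition, no spread between cultures could be estimated, no test was made and no p-value is given. Genes were counted when 2 arrays differed by at least 2-fold on the log2(signal + pseudocount) scale, and counts of the protease and inhibitor genes stand beside the share of all 11744 measured genes that met the same rule. Of the 37 genes, 27 passed the filter on low signal, which asked for a mean signal of about 66.1 over the 4 arrays. The other 10 were Mmp1a, Mmp1b, Mmp7, Mmp20, Adamts7, Adamts8, Adamts18, Adamts19, Adamts20 and Timp4, whose probe sets read between 0.99 and 70.2 on single arrays. Probe sets differ in binding efficiency, so levels of different genes were not compared, and the brightest probe set was used only to choose 1 per gene.

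The label of the cells was compared with marker genes. Of 11 mesenchymal markers 10 passed the filter, and Osr2, a palate transcription factor, did not. All 12 macrophage markers passed too, and together they read 74346 (untreated), 70851 (TGF-beta2), 72578 (SB431542) and 63113 (oxozeaenol). Of 10 epithelial markers 8 were measured, and Krt15 and Trp63 were below the filter. Together the 8 read 1979 (untreated), 1960 (TGF-beta2), 1913 (SB431542) and 5890 (oxozeaenol), but they did not move alike. With oxozeaenol over untreated, 4 were at least 2-fold higher (Krt14, Krt5, Krt19 and Sfn), against 1.49% of all genes, and 0 were lower, against 1.51%. From untreated to oxozeaenol, Krt14 went from 141 to 2218 and Krt5 from 195 to 1383, whereas Epcam read 369 and 366. Of 7 endothelial markers only Kdr was measured. The part of these other cells in the values below was not tested, and in bulk RNA fewer cells of a type and less RNA per cell cannot be told apart.

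Promoter sequence is shown first, because 9 of the 37 genes lie side by side on chromosome 9 and most of their promoters hold the same short motif. The cluster spans chr9:7272514-7699585 in GRCm38.p6 and holds, in order, Mmp13, Mmp12, Mmp1b, Mmp3, Mmp1a, Mmp10, Mmp8, Mmp20 and Mmp7. The RefSeq table used here lists 10 protein-coding genes in this span, and Mmp27, the remaining one, was not analysed here. RefSeq windows of 300 bases, from 250 before to 50 after the gene's start, were available for 23 of the 37 genes. Those missing were Mmp2, Mmp9, Mmp16, Mmp17, Mmp19, Adamts4, Adamts5, Adamts6, Adamts7, Adamts8, Adamts10, Adamts15, Adamts16 and Adamts19. The AP-1 motif was searched as TGANTCA, where N is any base and the reverse strand reads the same. It was present in a window of 8 of the 9 cluster genes, the exception being Mmp8, and in none of the other 14 genes. Counted by windows, it was in 8 of the 11 windows of the cluster, against 7.81% of all 32851 windows.

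The 100 bases before the start are given for 3 measured genes of the cluster, and for 2 genes outside it that differed by at least 2-fold between arrays. They read 5′ to 3′ on the gene's strand, from RefSeq on GRCm38.p6, with AP-1 matches in capitals. Mmp13 is chr9:7272414-7272513 on the plus strand, Mmp3 is chr9:7445722-7445821 on the plus strand, and Mmp10 is chr9:7502242-7502341 on the plus strand. Adamts1 is chr16:85803114-85803213 on the minus strand and Mmp11 is chr10:75932503-75932602 on the minus strand.
Mmp13: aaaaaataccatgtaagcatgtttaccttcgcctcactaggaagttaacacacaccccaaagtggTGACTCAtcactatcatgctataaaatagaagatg
Mmp3: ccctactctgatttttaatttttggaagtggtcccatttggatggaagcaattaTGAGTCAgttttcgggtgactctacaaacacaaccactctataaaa
Mmp10: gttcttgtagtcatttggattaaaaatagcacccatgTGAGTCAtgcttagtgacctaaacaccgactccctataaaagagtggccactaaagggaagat
Adamts1: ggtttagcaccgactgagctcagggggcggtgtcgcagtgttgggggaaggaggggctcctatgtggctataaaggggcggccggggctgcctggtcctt
Mmp11: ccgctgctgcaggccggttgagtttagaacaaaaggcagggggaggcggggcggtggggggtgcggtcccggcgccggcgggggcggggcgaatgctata

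The first base of the motif lay 35 bases before the start in Mmp13, 46 in Mmp3 and 63 in Mmp10. In Mmp1a it lay 73 bases before the start, in Mmp1b 93 and in Mmp20 95. In Mmp12 it lay 44 bases before the later of the 2 listed starts, and it was not found in the window of the earlier one. In Mmp7 it lay 63 bases before the earlier of 2 listed starts, and it was not found in the window of the later one. The Ets motif, searched as AGGAAG on both strands, was in a window of 7 cluster genes and of 5 of the other 14. By windows it was in 8 of the 11 of the cluster, against 35.4% of all windows. A Smad box, searched as CAGACA on both strands, was in a window of 6 cluster genes and of 1 other. By windows it was in 6 of the 11 of the cluster, against 21.0% of all windows. These matches describe letters, not binding.

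Over the 4 arrays, 4 of the 27 measured genes (14.8%) differed by at least 2-fold between some pair of arrays, namely Adamts5, Adamts1, Adamts6 and Mmp11. The same rule took 787 of 11744 genes (6.7%). The median distance between a gene's highest and lowest array was 0.39 on the log2 scale for the 27 genes and 0.38 for all genes. By their brightest probe sets, the genes encoding collagenases, gelatinases, membrane-bound Mmp enzymes and Timp inhibitors lay within 1.6-fold on all 4 arrays. Some further kept probe sets ranged wider, up to 1.91-fold for Mmp23, 1.86-fold for Timp3, 1.78-fold for Timp2 and 1.73-fold for Mmp9. The 4 genes that passed the rule included 3 Adamts genes.

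**Figure D1:**
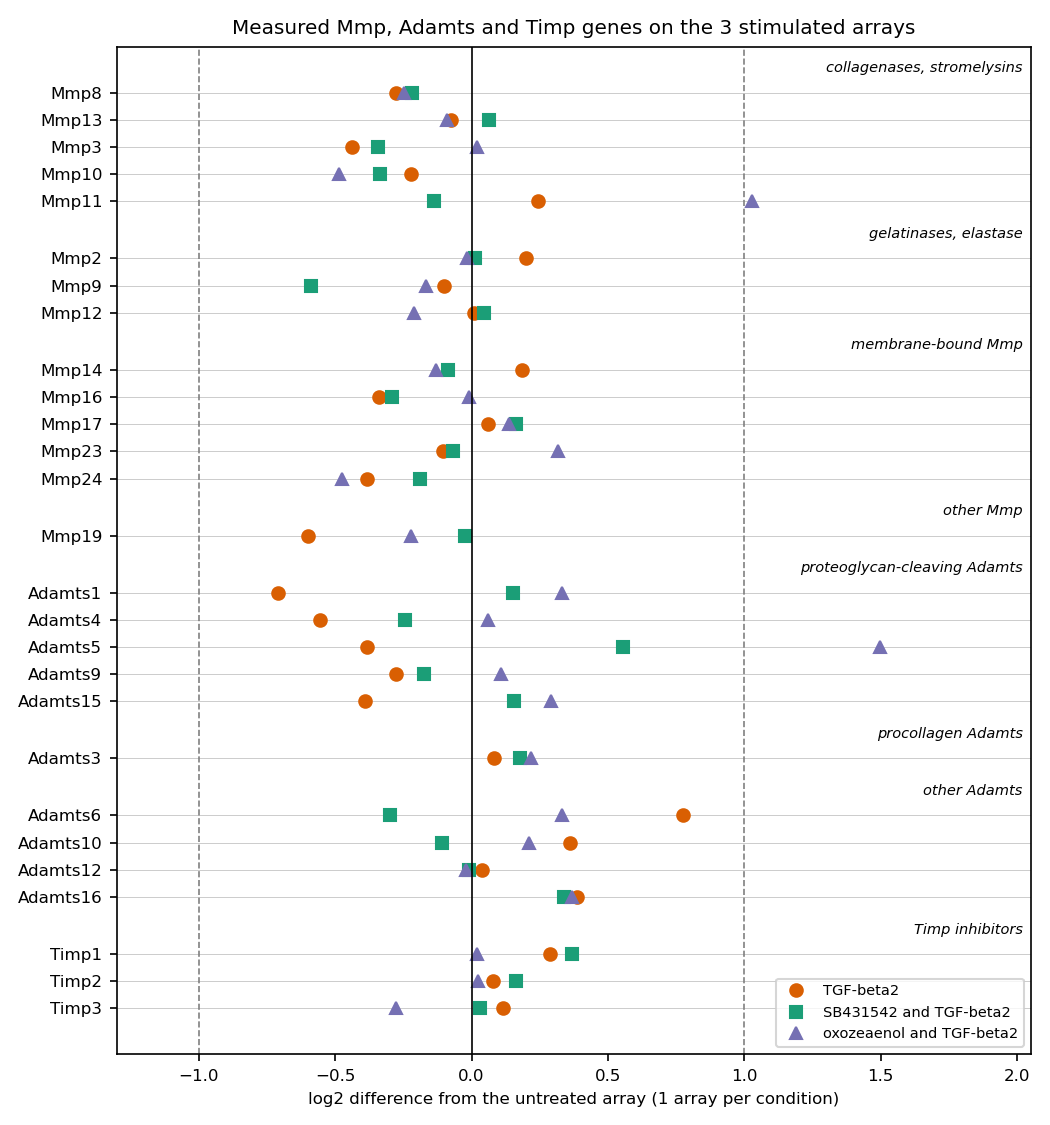
Log2 difference from the untreated array (x axis) of the 27 measured genes, grouped by role, on the TGF-beta2 (circles), SB431542 (squares) and oxozeaenol (triangles) arrays, with 1 array per condition. Dashed lines mark 2-fold; the oxozeaenol values of Adamts5 (2.82-fold) and Mmp11 (2.04-fold) lie past them, and the 5 proteoglycan-cleaving Adamts genes sit below 0 with TGF-beta2 alone.

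The collagenases cut fibrillar collagen and the stromelysins cut a wide range of matrix proteins and activate other Mmp precursors. Mmp13, collagenase 3, read 10278 (untreated), 9759 (TGF-beta2), 10746 (SB431542) and 9659 (oxozeaenol). Mmp8, the collagenase first found in neutrophils, had 2757, 2274, 2369 and 2321 in the same order. The highest and lowest arrays were 1.11-fold apart for Mmp13 and 1.21-fold for Mmp8, so the conditions lay close together for both collagenases.

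Mmp3, stromelysin 1, read 843 untreated, 616 with TGF-beta2, 661 with SB431542 and 856 with oxozeaenol. The arrays with TGF-beta2 alone and with SB431542 were the lower ones, and the largest distance was 1.37-fold. Mmp10, stromelysin 2, read 115, 95.4, 86.4 and 75.9 in that order, close to the filter level, with the untreated array highest and 1.4-fold above the oxozeaenol array. Mmp12, the macrophage elastase and also a gene of the cluster, read 13112, 13191, 13533 and 11331. Its lowest array was that of oxozeaenol, 1.19-fold below the highest, and the macrophage marker sum was lowest on the same array; the part of macrophages in this value was not tested.

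All 5 measured cluster genes thus lay within 1.4-fold on the 4 arrays. Mmp13 and Mmp12 are bright genes, and the deposited values do not mark saturated probe sets, so compression of their differences was not examined. Of 7 measured Fos and Jun family genes, Fosl2 and Jund also varied little, with log2 differences of −0.11 and −0.18 between oxozeaenol and TGF-beta2 alone, whereas the other 5 were at least 2-fold lower with oxozeaenol. Fos read 1644 (untreated), 2089 (TGF-beta2), 1392 (SB431542) and 269 (oxozeaenol). Fosl1, another Fos family member, read 1519, 1722, 1372 and 212, and Jun read 4687, 5185, 4281 and 2404. The oxozeaenol array was the lowest for all 3, with log2 differences from TGF-beta2 alone of −2.86, −2.90 and −1.10. The same differences were −0.01 for Mmp13, −0.22 for Mmp12, 0.46 for Mmp3, −0.26 for Mmp10 and 0.03 for Mmp8, with the sign for Mmp13 turned under quantile normalization and that for Mmp8 under median centring. Oxozeaenol stood at least 2-fold below TGF-beta2 alone for 7 of 13 measured AP-1, Ets and Runx factor genes, against 2.17% of all genes. The median of the 13 was −1.10 against 0.05 over all genes. Against untreated, oxozeaenol was at least 2-fold lower for 2 of the 13, Fos and Fosl1, against 1.51% of all genes. The median was then −0.58 against 0.03. With SB431542 over TGF-beta2 alone 3 of the 13 were lower (Junb, Ets1 and Runx1), against 1.18%. Junb read 315 with SB431542 and 390 with oxozeaenol. The list of these factor genes was chosen with earlier results of these data known, so the share of all genes beside it is no test of it. Transcript levels do not measure AP-1 activity, and protein or protease activity was not measured. The stimulated arrays were read at 120 minutes only, so later levels are not known. A link between these factors and the cluster genes was not tested.

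**Figure D2:**
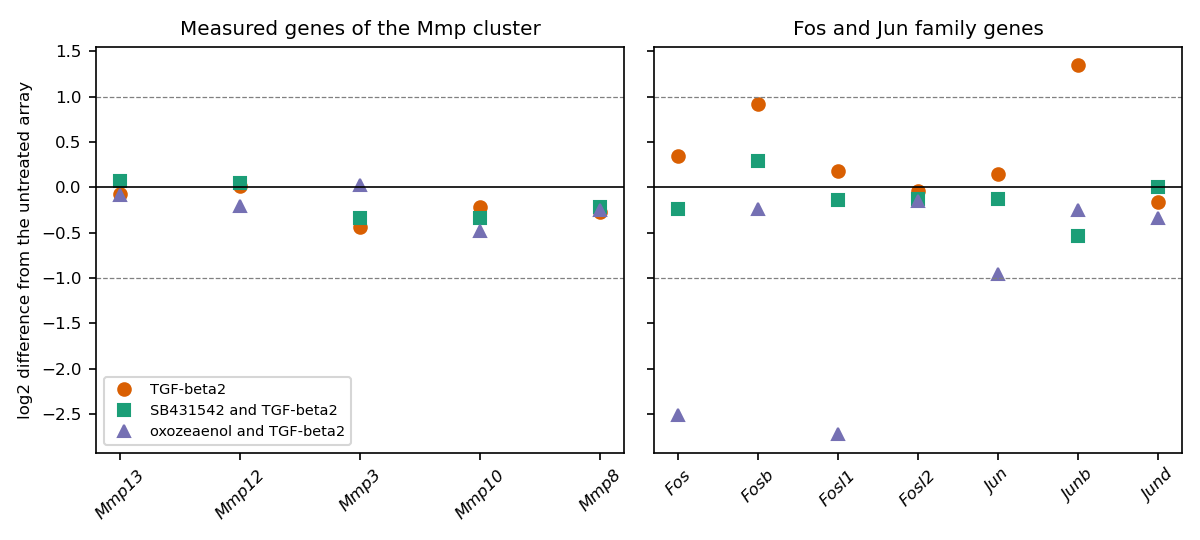
Log2 difference from the untreated array (y axis) of the 5 measured genes of the chromosome 9 cluster (left) and of 7 Fos and Jun family genes (right) on the 3 stimulated arrays, 1 array per point. The cluster genes stay between −0.48 and 0.06, and Fos and Fosl1 lie at −2.52 and −2.72 with oxozeaenol. A link between the panels was not tested.

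Mmp11, stromelysin 3, is an Mmp of remodelling connective tissue that is activated inside the cell by furin, and it lies outside the cluster at chr10:75923221-75932502. Its single probe set (1417234_at) read 377 (untreated), 450 (TGF-beta2), 340 (SB431542) and 791 (oxozeaenol). The oxozeaenol array stood above the other 3, which lay close together. It was 2.24-fold above SB431542, 2.04-fold above untreated and 1.72-fold above TGF-beta2 alone. The difference from untreated fell below 2-fold under 3 of 7 alternatives, at the lowest 0.95 on the log2 scale. The log2 difference between the inhibitors was 1.17, outside the range from −0.68 to 0.79 that held the central 95% of genes of like brightness, which were those in the same of 20 equal bins by mean signal. From TGF-beta2 alone the log2 difference with oxozeaenol was 0.785, just inside its range (−1.06 to 0.786). From untreated it was 1.03, above its range (−0.89 to 0.73). With no replicate, such ranges show how far arrays differ over genes, technical and biological differences together.

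The gelatinases cleave denatured collagen and basement membrane. Mmp2, gelatinase A, read 8130 (untreated), 9338 (TGF-beta2), 8200 (SB431542) and 8026 (oxozeaenol), a largest distance of 1.16-fold. Mmp9, gelatinase B, read 872, 811, 573 and 775. The SB431542 array was the lowest for Mmp9, 1.5-fold below untreated, and the second probe set of the gene gave 308, 333, 184 and 315 with the same array lowest. The log2 difference of Mmp9 between SB431542 and untreated was −0.59, just below the central range for genes of like brightness (−0.55 to 0.40).

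Membrane-bound Mmp enzymes act at the cell surface, and Mmp14 activates the Mmp2 precursor there together with Timp2. Mmp14 read 8824 (untreated), 10028 (TGF-beta2), 8319 (SB431542) and 8065 (oxozeaenol). TGF-beta2 alone gave the highest signal, 1.24-fold above the lowest. Its other 2 probe sets also placed SB431542 below TGF-beta2 alone (log2 differences −0.20 and −0.26), but with oxozeaenol they stood at 0.04 and 0.02. Mmp23, a transmembrane Mmp without the usual cysteine switch, read 1197, 1112, 1141 and 1497, with the oxozeaenol array highest. Its second probe set read 534, 863, 736 and 1043, so both placed oxozeaenol highest but they disagreed in sign on TGF-beta2 over untreated (−0.10 and 0.67).

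By their brightest probe sets, the remaining membrane-bound genes Mmp16, Mmp17 and Mmp24 had largest distances of 1.27-fold, 1.12-fold and 1.39-fold. Mmp19, a secreted Mmp of the skin and other tissues, read 288 (untreated), 182 (TGF-beta2), 282 (SB431542) and 243 (oxozeaenol). The TGF-beta2 array was the lowest, 1.52-fold below untreated, and the second probe set of Mmp19 was lowest there too.

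Among the proteoglycan-cleaving Adamts genes, Adamts5 and Adamts1 differed by at least 2-fold between arrays, and Adamts4, Adamts9 and Adamts15 did not. Adamts5, aggrecanase 2, lies at chr16:85858157-85901125, and its brightest probe set (1422561_at) read 420 (untreated), 316 (TGF-beta2), 626 (SB431542) and 1223 (oxozeaenol). The oxozeaenol array was the highest and the TGF-beta2 array the lowest, with untreated and SB431542 between them. Oxozeaenol was 3.68-fold above TGF-beta2 alone, which placed Adamts5 at rank 45 of 11744 genes by increase, and 2.82-fold above untreated. SB431542 was 1.92-fold above TGF-beta2 alone, short of the rule, and oxozeaenol was 1.92-fold above SB431542.

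Adamts5 had 3 probe sets past the filter, which share the same RNA and are not replicates. The second (1456404_at) read 416 (untreated), 281 (TGF-beta2), 564 (SB431542) and 1069 (oxozeaenol), and the third (1450658_at) read 192, 138, 263 and 328. All 3 ordered the arrays alike. Their log2 differences between oxozeaenol and TGF-beta2 alone were 1.88, 1.85 and 1.14, against a central range of −0.96 to 0.82 for genes as bright as the first. The differences between SB431542 and TGF-beta2 alone were 0.94, 0.95 and 0.84, against −0.78 to 0.54. The fourth probe set was below the filter and read at most 2.69 on any array.

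Adamts1, a versican-cleaving protease, is the neighbour of Adamts5 at chr16:85793827-85803113, with 55043 bases and no protein-coding gene of the RefSeq table between them. Its single probe set (1450716_at) read 859 (untreated), 517 (TGF-beta2), 957 (SB431542) and 1088 (oxozeaenol). The TGF-beta2 array stood below the other 3. It was 1.64-fold below untreated, a log2 difference of −0.71 against a central range of −0.51 to 0.50. SB431542 was 1.82-fold and oxozeaenol 2.06-fold above it, the latter below 2-fold under 2 of 7 alternatives (lowest log2 difference 0.97). These comparisons share the TGF-beta2 array, so a low reading there would enter all of them. Adamts1 and Adamts5 were the 2 of 27 genes at least 2-fold higher with oxozeaenol than with TGF-beta2 alone, against 1.82% of all genes, and 0 of 27 were lower, against 2.17%.

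**Figure D3:**
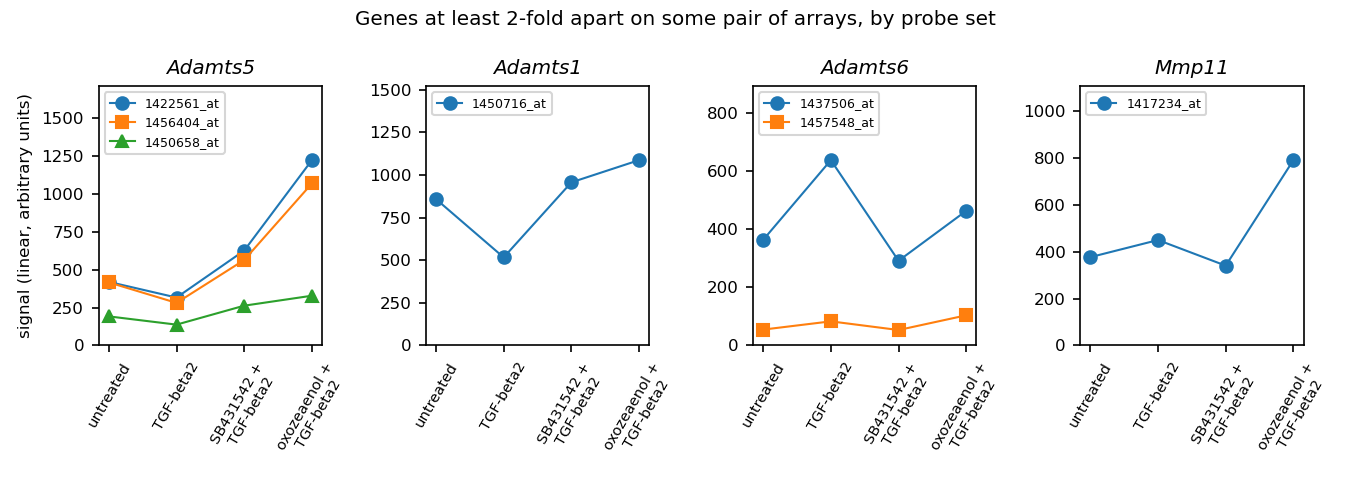
Signal (y axis, linear, starting at 0) on the 4 arrays of each probe set past the filter for Adamts5, Adamts1, Adamts6 and Mmp11; lines join the values of 1 probe set and carry no order in time. The 3 probe sets of Adamts5 and the 1 of Adamts1 are lowest with TGF-beta2 alone and highest with oxozeaenol, Adamts6 is highest with TGF-beta2 alone in its brighter probe set, and Mmp11 is highest with oxozeaenol at 791.

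Adamts4, aggrecanase 1, read 387 (untreated), 257 (TGF-beta2), 324 (SB431542) and 405 (oxozeaenol). TGF-beta2 alone was again the lowest, 1.47-fold below untreated and 1.53-fold below oxozeaenol. The second probe set of Adamts4 did not follow, with 154, 203, 160 and 223. Adamts15, a versican-cleaving protease, read 116, 83.1, 131 and 146, and Adamts9, which cleaves versican and is needed with Adamts20 for palate closure in mice, read 114, 90.5, 99.0 and 125. Both had their lowest signal with TGF-beta2 alone and their highest with oxozeaenol, at most 1.6-fold apart.

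In all 5 measured proteoglycan-cleaving genes the brightest probe set was lowest on the TGF-beta2 array and highest on the oxozeaenol array. Over the 27 genes the TGF-beta2 array was the lowest for 10, and over all genes for 30.7%. The oxozeaenol array was the highest for 9 of the 27, and for 34.8% of all genes, more often than any other array. The share of all genes with both traits together was not counted, and this gene list was chosen with earlier results of these data known. The median log2 difference of the 5 genes was −0.39 for TGF-beta2 over untreated, 0.55 for SB431542 over TGF-beta2 and 0.68 for oxozeaenol over TGF-beta2. Over all genes the medians were −0.03, 0.03 and 0.05. These comparisons share the TGF-beta2 array, so a low reading there would enter each median. Against untreated, the medians of the 5 genes were 0.15 with SB431542 and 0.29 with oxozeaenol, against −0.01 and 0.03 over all genes. Vcan, which encodes the substrate versican, read 1909 (untreated), 1746 (TGF-beta2), 2026 (SB431542) and 2004 (oxozeaenol), within 2-fold on every pair. Acan, encoding aggrecan, read 260, 367, 342 and 179, with oxozeaenol the lowest, and it also lay short of 2-fold from TGF-beta2 alone on the log2 scale used (−0.95).

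Adamts6, a protease of the Adamts10 branch of the family at chr13:104286518-104496695, ordered the arrays differently. Its brighter probe set (1437506_at) read 363 (untreated), 637 (TGF-beta2), 291 (SB431542) and 463 (oxozeaenol). TGF-beta2 alone gave the highest signal and SB431542 the lowest. TGF-beta2 was 1.71-fold above untreated, short of the rule and within the central range for genes of like brightness, whose upper bound was 0.78. With SB431542 the signal was 2.11-fold lower than with TGF-beta2 alone, and 2 of 7 alternatives took it below 2-fold. This was the 1 of 27 genes at least 2-fold lower in that comparison, against 1.18% of all genes, and 0 of 27 were higher, against 0.613%. The dimmer probe set (1457548_at) read 54.6, 82.9, 53.1 and 104, so its difference with SB431542 had the same sign at −0.48, whereas with oxozeaenol it stood above TGF-beta2 alone.

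Adamts10, which acts on fibrillin-rich microfibrils, read 198 (untreated), 260 (TGF-beta2), 182 (SB431542) and 232 (oxozeaenol), 1.39-fold apart at most, with TGF-beta2 highest and SB431542 lowest as in the brighter probe set of Adamts6. Adamts12 was the most even of the 27 genes, with signals from 768 to 800. Adamts16 read 94.7 untreated and between 126 and 130.5 on the 3 stimulated arrays. Adamts3, a procollagen N-propeptidase, read 90.7, 97.3, 105 and 109, at most 1.16-fold apart.

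Among the inhibitors, Timp1 read 14403 (untreated), 17592 (TGF-beta2), 18573 (SB431542) and 14585 (oxozeaenol). The arrays with TGF-beta2 alone and with SB431542 stood above the other pair, by at most 1.29-fold. Timp2, which also takes part in the activation of Mmp2, read 12486, 13196, 13993 and 12677 with its brightest probe set. Of its 5 probe sets past the filter, 4 had log2 differences between −0.09 and 0.16 from untreated on the 3 stimulated arrays. These signals lie in the upper part of the scale, whose highest value on any array was 24677, and the deposited values do not mark saturated probe sets. The same limit holds for the bright genes Mmp2, Mmp12, Mmp13 and Mmp14.

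Timp3, the inhibitor that binds the matrix and also blocks several Adamts enzymes, read 13730 (untreated), 14878 (TGF-beta2), 14030 (SB431542) and 11334 (oxozeaenol). The oxozeaenol array was the lowest, 1.31-fold below TGF-beta2 alone. All 4 probe sets of Timp3 placed it lowest, with log2 differences from TGF-beta2 alone of −0.39, −0.62, −0.89 and −0.52, none at least 2-fold. From untreated they were −0.28, −0.37, −0.56 and −0.42. For the brightest probe set, both differences lay inside the central ranges for genes of like brightness. These ranges were −0.40 to 0.21 over TGF-beta2 alone and −0.35 to 0.31 over untreated. The Adamts5 signal was highest and the Timp3 signal lowest on the same single array, and a link between them was not tested.

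**Figure D4:**
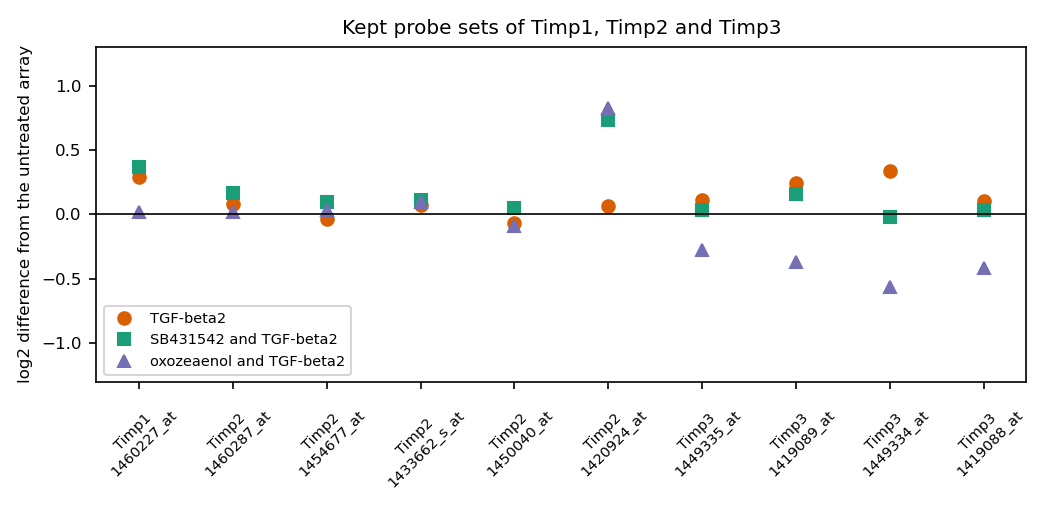
Log2 difference from the untreated array (y axis) for each probe set of Timp1, Timp2 and Timp3 past the filter on the 3 stimulated arrays, 1 array per point. The 4 probe sets of Timp3 lie at −0.28 to −0.56 with oxozeaenol, and 1 of the 5 probe sets of Timp2 lies at 0.73 with SB431542 and 0.83 with oxozeaenol, apart from the other 4.

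By comparison, the 27 genes divided as follows. With TGF-beta2 over untreated, 0 were at least 2-fold higher and 0 lower, against 0.673% and 0.366% of all genes, and the median log2 difference was −0.07 against −0.03. Their values ran from −0.71 for Adamts1 to 0.78 for Adamts6, with a median size regardless of sign of 0.28 against 0.15 over all genes. These are values of the brightest probe sets, and 14 of 21 further kept probe sets matched them in sign. With SB431542 over TGF-beta2 the median was 0.06 against 0.03, and with oxozeaenol over TGF-beta2 it was −0.01 against 0.05. The median sizes regardless of sign were 0.12 against 0.17 with SB431542, and 0.27 against 0.21 with oxozeaenol.

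Between the inhibitors, Mmp11 was the 1 gene at least 2-fold higher with oxozeaenol than with SB431542, against 1.51% of all genes, and 0 were lower, against 1.3%. Against untreated, Adamts5 and Mmp11 were at least 2-fold higher with oxozeaenol, against 1.49% of all genes, and 0 were lower, against 1.51%. Only Adamts5 was counted under 3 of 7 alternatives. With SB431542, 0 genes were at least 2-fold from untreated in each direction, against 0.468% higher and 0.383% lower. A count of 1 or 2 among 27 genes is too small to set the family apart from these shares. The summed epithelial markers were also highest on the oxozeaenol array, though not every marker rose (Epcam read 369 untreated and 366 with oxozeaenol). The part of epithelial cells in the values of Adamts5 and Mmp11 was not tested.

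**Figure D5:**
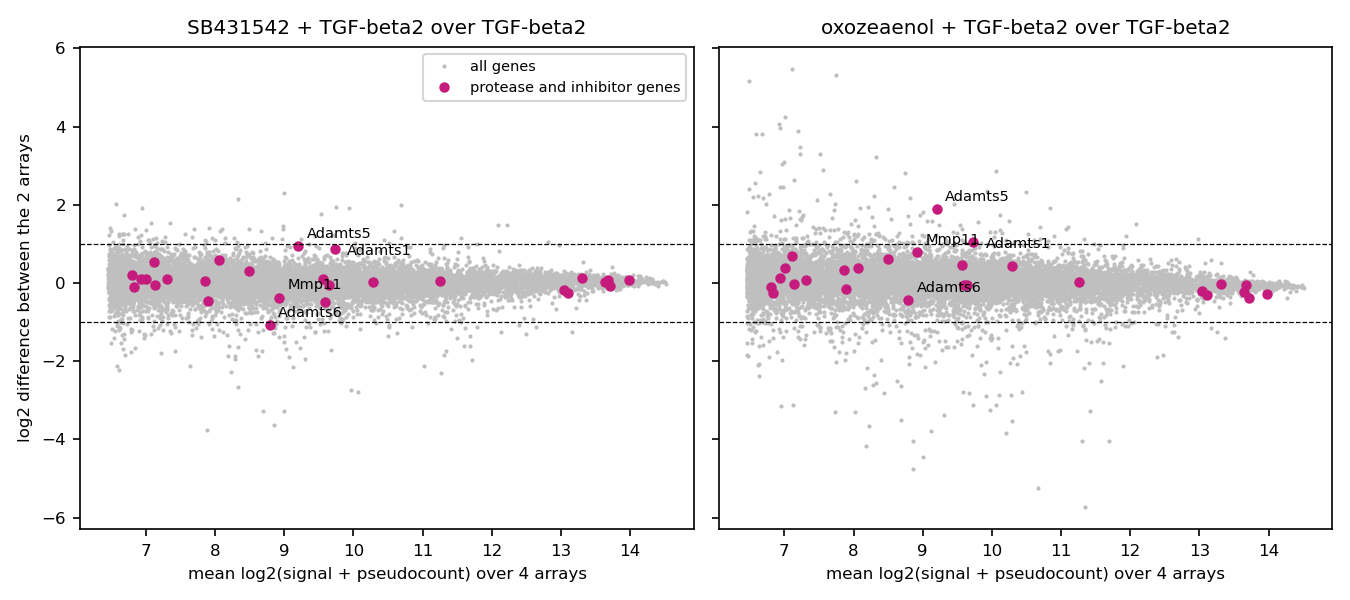
Log2 difference between 2 arrays (y axis) against the mean log2 level over the 4 arrays (x axis) for 11744 genes (grey) and the 27 protease and inhibitor genes (coloured), with SB431542 (left) and oxozeaenol (right) each over TGF-beta2 alone. Dashed lines mark 2-fold; Adamts6 lies past it on the left at −1.07, and Adamts5 at 1.88 and Adamts1 at 1.04 on the right.

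Genes that activate or anchor these proteases were read beside them, in a list chosen with earlier results of these data known. Of 14 listed, 10 were measured, and with oxozeaenol over TGF-beta2 alone 2 were at least 2-fold lower and 0 higher, against 2.17% and 1.82% of all genes, with a median of −0.42 against 0.05 over all genes. Plau, the urokinase that makes plasmin, an activator of Mmp precursors, read 672 (untreated), 1040 (TGF-beta2), 928 (SB431542) and 318 (oxozeaenol). Plaur, its receptor, read 2978, 3770, 2555 and 1105. The oxozeaenol array was the lowest for both, and 0 of the 10 genes were at least 2-fold apart with TGF-beta2 over untreated (0.673% of all genes higher, 0.366% lower) or with SB431542 over TGF-beta2 (0.613% higher, 1.18% lower).

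Furin, which cleaves the propeptide of Mmp11, Mmp14 and the Adamts enzymes, read 899 (untreated), 1319 (TGF-beta2), 932 (SB431542) and 888 (oxozeaenol). It was highest with TGF-beta2 alone, by a log2 difference of 0.54 from untreated. Reck, a membrane-anchored inhibitor of Mmp enzymes, read 622, 554, 547 and 721, with oxozeaenol highest. Of 11 measured Adamts-like and Adam genes, 0 were at least 2-fold apart in any of the 6 comparisons, against 6.7% of all genes, and Adam19, a membrane-bound relative, came nearest at −0.97 with oxozeaenol over TGF-beta2 alone. Of 12 measured matrix substrate genes 0 were at least 2-fold apart in any comparison, against the same 6.7%, among them the collagen genes Col1a1 and Col3a1 and the fibronectin gene Fn1.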

How the data were processed

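The deposited intensities are linear signals, 1 per probe set and array. The software GCOS is named in the submitters' processing notes, without a version or settings. The trimmed mean of the deposited intensities (lowest and highest 2% set aside) was 500.0 on all 4 arrays, which shows scaling to a common level. After 64 control probe sets were set aside, gene names came from the platform annotation (1 symbol for 34945 probe sets, several for 932, none for 9160). Values were taken as log2(signal + 21.7), the pseudocount being the 25th percentile of all values. Probe sets whose mean log2 value reached the median were kept, and the brightest kept probe set stood for its gene, which gave 11744 genes. Folds are on this scale and understate differences of dim genes. The pairs of arrays compared numbered 6, and called means at least 2-fold apart. Coordinates and promoters are from RefSeq, GRCm38.p6, where all 37 genes matched by symbol.

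The members and lists were chosen with earlier results of these data known. The rule for named genes took every gene at least 2-fold apart on any pair of arrays, each measured Timp gene and a fixed set of Mmp and Adamts genes. Further measured genes are named as the accounting of all members required. The counting step was tested only on simulated data with shifts well beyond 2-fold, so that test does not bear on genes near the 2-fold rule. Alternatives were 2 other pseudocounts, a stricter filter, no filter, quantile normalization, median centring, and the mean of a gene's kept probe sets. Python 3.11.15, numpy 2.4.6, pandas 2.3.3 and matplotlib 3.10.9 were used.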

Additional observations from a re-analysis of the deposited data

How the results depend on the processing

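The 13 counts of genes at least 2-fold apart (each direction of 6 comparisons, and any pair of arrays) were recomputed under 7 alternatives, and those against untreated with an inhibitor or over any pair were added after seeing the data. Of these 91 values, 79 equalled the reported count or lay within 1.5 times of it. The count higher with oxozeaenol over TGF-beta2, reported as 2, was 1 with the larger pseudocount (the median signal) and 1 with median centring, where Adamts5 remained and Adamts1 fell just short. With no filter it was 4, because the dim genes Adamts18 and Adamts20 entered. The count lower with SB431542 over TGF-beta2, reported as 1 (Adamts6), was 0 with that pseudocount and 0 with the mean of kept probe sets. The count higher with oxozeaenol over SB431542, reported as 1 (Mmp11), was 3 with no filter, with Adamts7 and Adamts18 added. The count higher with oxozeaenol over untreated, reported as 2, was 1 (Adamts5) with the larger pseudocount, with quantile normalization and with median centring. The count lower with SB431542 over untreated, reported as 0, was 1 (Adamts7) with no filter. The count over any pair, reported as 4, was 2 (Adamts5 and Mmp11) with the larger pseudocount and 7 with no filter. Over the alternatives the log2 difference between oxozeaenol and TGF-beta2 alone lay between 1.62 and 1.93 for Adamts5, and between 0.97 and 1.06 for Adamts1. That of Adamts6 between SB431542 and TGF-beta2 alone lay between −1.11 and −0.78, and that of Mmp11 between the inhibitors between 1.07 and 1.20. No difference of at least 2-fold changed sign. No paired analysis was possible because each condition had 1 array. There was 1 culture per condition, so differences between cultures, order of handling and treatment cannot be told apart, and signal near the filter level limits Mmp10, Mmp24, Adamts3, Adamts9, Adamts15 and Adamts16.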

Other observations

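Probe sets of the same gene did not always order the arrays alike. Of the 27 measured genes, 13 had further probe sets past the filter, 21 in all. Their sign matched that of the brightest probe set for 14 of 21 with TGF-beta2 over untreated, 17 with SB431542 over TGF-beta2, 15 with oxozeaenol over TGF-beta2 and 17 with oxozeaenol over SB431542. The 2 further probe sets at least 2-fold apart in any of these 4 comparisons were both of Adamts5, with oxozeaenol over TGF-beta2.

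The dimmest kept probe set of Timp2 (1420924_at) read 554 (untreated), 581 (TGF-beta2), 936 (SB431542) and 1001 (oxozeaenol), higher on both inhibitor arrays, while the other 4 stayed within 0.16 of untreated on the log2 scale. The second probe set of Adamts16 (1439604_at) read 79.9, 129, 77.5 and 83.7, highest with TGF-beta2 alone, whereas the first stayed level over the stimulated arrays. Of the genes below the filter, Adamts20 read 23.9 (untreated), 22.7 (TGF-beta2), 29.7 (SB431542) and 68.8 (oxozeaenol). Adamts7 read 64.9, 39.1, 11.9 and 70.2 in that order, so its oxozeaenol signal was close to the untreated one and SB431542 was lowest. Of the 27 genes, Adamts5 ranked 148 of 11744 by the distance between its highest and lowest arrays, followed by Mmp11 at 534, Adamts6 at 655 and Adamts1 at 699.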
